A study of Mus musculus with 4 samples.

Results

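The cell cycle genes described here are 48 genes that act in DNA replication or in mitosis, taken by name and not by their values. Of these, 18 act from the G1/S boundary through S phase and 30 act in G2 and mitosis, and all 48 were found among the 32285 genes of the matrices of both mice. The cells came from an adoptive transfer. CD4 T cells were purified from spleens of 2 donors of the strain B6.H2g7, C57BL/6 mice that carry the H2g7 haplotype of NOD mice (labelled B6.NOD-(D17Mit21-D17Mit10)/LtJ, 6 to 8 weeks old), 5000000 of them were transferred into NOD.Rag1null hosts, and live CD4+ TCRβ+ cells were sorted from the spleens of 2 hosts on day 14. NOD.Rag1null mice lack the recombinase that assembles antigen receptors and so have no T or B cells of their own, and every cell compared here went through the same transfer. The labels do not say whether the cells of the donors were pooled. Gene expression and T cell receptor libraries (10x Genomics, 5′) were made from each host. The groups were cells with a TRBV26 β chain, cells with a TRBV23 β chain, and cells with neither, called other cells here. TRBV26 encodes Vβ3, the segment that the study's title names. Cells were further grouped by clonotype size, which is the number of kept cells of a mouse with the same V segment, J segment and CDR3 nucleotides of the β chain, and by Foxp3 status, which is positive from 1 Foxp3 UMI on.

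The cell cycle runs on waves of transcription. Around the G1/S boundary E2F transcription factors, held back in resting cells by pocket proteins of the retinoblastoma family, raise the genes that license replication origins and make deoxynucleotides, and in G2 and mitosis the MuvB complex with B-Myb and FoxM1 raises the genes of the spindle, the kinetochore and the anaphase-promoting complex. T cells leave quiescence when their receptor is engaged, and when transferred into hosts without lymphocytes they divide, some in response to antigen and some to fill the empty niche.

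A total of 5993 cells in mouse 1 and 6332 cells in mouse 2 were kept. They had at least 500 genes, at most 10% mitochondrial UMIs, 1 TRB chain and at most 2 TRA chains. They held 38725969 and 44796902 UMIs, with medians of 5596 and 6219.5 UMIs per cell. TRBV26 cells numbered 2084 and 1960, TRBV23 cells 959 and 725, and other cells 2950 and 3647. The matrices shared 166 cell barcodes, of which 58 were kept in both mice. Of the CD4 T cell markers Cd4, Cd3e, Cd3d and Trac, none was at 0 in any class, and their sums lay between 3422 and 3663 counts per 1000000 UMIs (CPM). In these V classes, sums of B cell markers were at most 6.65 CPM and of myeloid markers at most 20.1 CPM. Counts were summed per mouse and class and tested with edgeR's quasi-likelihood test with the mouse as a block, and a gene is called where its p, adjusted by Benjamini-Hochberg over all tested genes, was under 0.05. With 2 hosts and the mouse as a block, the p-values measure only how the class differences vary between these 2. The difference in level between the hosts does not enter them. With 2 values per group, the groups of an unchanged gene can also lie apart. Overlap is therefore given below only to describe the values, and its share over all tested genes is not given. Shares of all tested genes called are given for this test only. Counts of members in alternative settings stand without such a share. In such sums, fewer dividing cells and less RNA per dividing cell cannot be told apart.

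Promoters show the sequence side of these waves, and the 4 printed here carry the motif classes known from each. RefSeq promoters (GRCm38.p6) were matched for 40 members (all but Mcm4, Gmnn, Ccne2, Ccna2, Stmn1, Aurkb, Tpx2 and Kif20a), 15 of S phase and 25 of G2 and mitosis, and the 250 bases before the start were searched on both strands for the E2F motif (TTTGGCGC, TTTCGCGC, TTCCCGCC, TTTCCCGC or TTGGCGCC, which can overlap each other), for the CCAAT box (CCAAT), which NF-Y binds, and for the CHR (TTTGAA or TTCGAA), which MuvB binds. The 150 bases nearest the start are shown 5′ to 3′ on the gene's own strand, with matches to any of these in capitals. Mcm6 (chr1:128359706-128359855, minus strand) stands for the E2F class, Cdk1 (chr10:69352913-69353062, minus strand) holds all 3 kinds, and Ccnb2 (chr9:70421555-70421704, minus strand) and Ube2c (chr2:164769779-164769928, plus strand) stand for the class with CCAAT boxes and a CHR. Mcm6 also holds CCAAT boxes, which read ATTGG on the strand shown. The CHR of Ccnb2 and 4 of the 6 CCAAT boxes of Ube2c lie upstream of the printed stretch.
Mcm6: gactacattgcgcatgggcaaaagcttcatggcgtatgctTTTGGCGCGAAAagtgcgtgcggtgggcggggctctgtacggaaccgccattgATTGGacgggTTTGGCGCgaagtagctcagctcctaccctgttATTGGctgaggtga
Cdk1: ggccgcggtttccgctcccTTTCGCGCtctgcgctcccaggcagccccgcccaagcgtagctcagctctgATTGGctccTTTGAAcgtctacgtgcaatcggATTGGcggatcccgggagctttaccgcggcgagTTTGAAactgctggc
Ccnb2: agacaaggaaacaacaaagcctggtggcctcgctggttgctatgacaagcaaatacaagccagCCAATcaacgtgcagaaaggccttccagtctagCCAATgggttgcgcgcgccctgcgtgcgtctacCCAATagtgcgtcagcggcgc
Ube2c: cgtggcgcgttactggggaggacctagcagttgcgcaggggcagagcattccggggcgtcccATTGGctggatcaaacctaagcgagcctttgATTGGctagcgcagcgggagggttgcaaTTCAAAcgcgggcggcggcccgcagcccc
The E2F motif was in 5 of 15 promoters of S phase genes (Mcm5, Mcm6, Mcm7, Cdc6 and Rrm1) and in 2 of 25 of G2 and mitosis genes (Cdk1 and Ccnb1), against 3.45% of all 27025 promoters in the table. A CCAAT box was in 9 of 15 and in 22 of 25, against 34.5% of all promoters. A CCAAT box together with a CHR was in 2 of 15 (Mcm2 and Mcm7) and in 9 of 25 (Cdk1, Ccnb2, Top2a, Hmgb2, Mki67, Bub1b, Cdc20, Ube2c and Kif11), against 6.21% of all promoters. Birc5, Nuf2 and Nusap1 had none of the motifs in this window, and neither had Cdt1, Tyms, Tk1, Ccne1 and E2f1. For 36 of the 40 members the bases after the start were found in a transcript of the gene on the same strand, and the others were counted as well. These are matches of letters and not sites shown to be bound.

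The members separated by phase within the cells. Cells were thinned to 2000 UMIs each, and a cell was past the S gate with at least 3 UMIs over the 18 S phase genes and past the G2/M gate with at least 3 UMIs over 28 G2 and mitosis genes (without Stmn1 and Hmgb2). The S gate alone was passed by 562 cells in mouse 1 and 532 in mouse 2, the G2/M gate alone by 153 and 152, and both by 389 and 243. For each gene, itself left out of the gates, the level in cells past the G2/M gate alone was set against that in cells past the S gate alone, as a difference of log2(CPM + 1). E2f1, the activator of the G1/S wave, lay at the S end at -4.80 and had no UMI in the cells past the G2/M gate alone in either mouse, so that its value depends on the added 1. Cdc6 and the helicase subunit Mcm3, which are loaded at origins before replication, followed at -3.61 and -2.64. Cenpf, a kinetochore protein, lay at the mitotic end at 6.92, after the hyaluronan-mediated motility receptor Hmmr, which sits on spindle microtubules, at 6.04 and the kinase Plk1 at 5.78. In cells past the S gate alone, Cenpf had no UMI in mouse 1, and Hmmr and Plk1 had none in mouse 2. Cdc6 had none in cells past the G2/M gate alone in mouse 2, so these 4 values depend on the added 1 too.

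Between the ends, some members stood apart from their list. Of the 18 S phase genes, 14 were higher in S gate cells in the mean of both mice, while the ribonucleotide reductase subunits Rrm2 and Rrm1 were near 0 at 0.03 and 0.07, and thymidine kinase Tk1 at 0.42 and the PCNA-bound factor Pclaf at 0.98 leaned to G2/M. All 30 G2 and mitosis genes had a mean above 0, and only Spc25, part of the outer kinetochore, differed in sign between the mice, at 3.20 in mouse 1 and -2.51 in mouse 2. In mouse 2 Spc25 had no UMI in cells past the G2/M gate alone and 4.68 CPM past the S gate alone, so its sign there rests on few UMIs and the added 1. The members also differed in how far they dropped in cells past neither gate, which are not all known to be outside the cycle. Pclaf was 7.18 higher on the log2(CPM + 1) scale in cells past both gates than in cells past neither, and the survivin gene Birc5, a subunit of the chromosomal passenger complex, was 6.92 higher. For Mcm6 the difference was 1.69, the smallest of all members, and for the centromeric histone Cenpa it was 2.74. Cenpa had 1012 and 683 CPM in cells past the G2/M gate alone, against 61.1 and 57.3 CPM in cells past neither gate, so its transcripts were also found outside the gates. The gates use the members themselves, so this order describes the list and tests nothing.

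**Figure D1:**
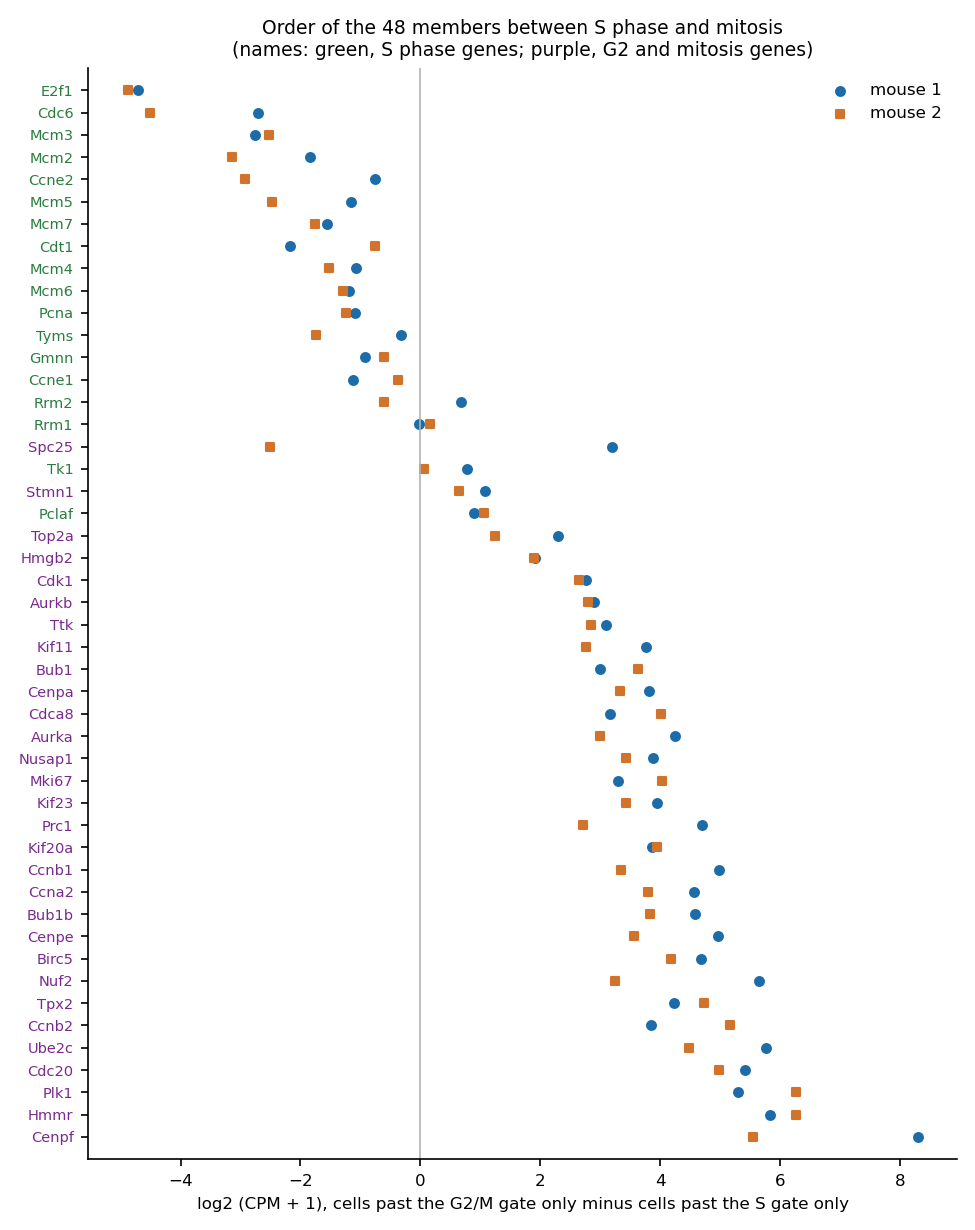
Difference in log2(CPM + 1) between cells past the G2/M gate alone and cells past the S gate alone for each of the 48 genes, with the gene left out of the gates; circles are mouse 1 and squares mouse 2, and names are green for S phase genes and purple for G2 and mitosis genes. S phase genes fill the left side from E2f1 at -4.80 on, G2 and mitosis genes the right side up to Cenpf at 6.92. Spc25 has its mice on opposite sides of 0, with no UMI past the G2/M gate alone in mouse 2.

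Cell cycle genes were lower in TRBV26 cells than in other cells. Of the 48 members, 44 were called lower and none higher, where 10.5% of all 12628 tested genes were called lower. The median log2 fold change of the members was -0.58 (-0.47 in mouse 1 and -0.71 in mouse 2), and that of all tested genes was 0.003. The sign was the same in both mice for all 48, from -0.96 for the checkpoint kinase Ttk to -0.19 for Mcm6. With 1 cell drawn per clonotype Mcm6 was the exception, at 0.000543 and not called. The median was -0.46 over the S phase genes, with 17 of 18 called, and -0.64 over the G2 and mitosis genes, with 27 of 30 called. This order of the phases was that of mouse 2. In mouse 1 the median of the S phase genes lay below that of the G2 and mitosis genes. Ccne2, Ccnb1, Cenpa and Ube2c were not called.

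Among the origin licensing genes, which load the replicative helicase onto DNA, all 9 were called lower, with a median of -0.34. Mcm6 had 198 and 187 CPM in TRBV26 cells of mouse 1 and mouse 2, against 243 and 199 CPM in other cells (log2 fold change -0.19 ± 0.06 SE, edgeR adjusted p = 0.035). Mcm4, another subunit of the helicase ring, had 83.0 and 77.7 CPM in TRBV26 cells, against 108 and 91.2 CPM in other cells (-0.30 ± 0.05, edgeR adjusted p = 0.0024). Gmnn, the inhibitor of Cdt1 that blocks a new round of licensing, had 45.8 and 35.9 CPM in TRBV26 cells, against 66.6 and 51.4 CPM in other cells (-0.53 ± 0.06, edgeR adjusted p = 0.00011). For these 3 genes both TRBV26 values lay below both values of the other cells, although for Mcm6 the gap in mouse 2 was small. The remaining licensing genes Mcm2, Mcm3, Mcm5, Mcm7, Cdc6 and Cdt1 had log2 fold changes between -0.68 (Cdc6) and -0.27 (Cdt1).

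The DNA synthesis genes were lower by more, with all 6 called and a median of -0.62. Rrm2, the S phase subunit of the enzyme that makes deoxynucleotides, had 80.1 and 48.6 CPM in TRBV26 cells, against 132 and 88.9 CPM in other cells (-0.80 ± 0.11, edgeR adjusted p = 0.00034). Pclaf had 97.2 and 67.0 CPM in TRBV26 cells, against 168 and 110.1 CPM in other cells (-0.76 ± 0.11, edgeR adjusted p = 0.0005). Pcna, the sliding clamp of DNA polymerase, moved less, with 90.6 and 76.7 CPM in TRBV26 cells, against 119 and 96.9 CPM in other cells (-0.36 ± 0.05, edgeR adjusted p = 0.0006). The groups did not overlap for any of these 3. Rrm1, the partner subunit of Rrm2, Tyms, which makes thymidylate, and Tk1 had log2 fold changes between -0.68 (Tk1) and -0.44 (Rrm1). Of the G1/S regulators, E2f1 had 10.5 and 9.11 CPM in TRBV26 cells, against 16.1 and 15.0 CPM in other cells (-0.67 ± 0.11, edgeR adjusted p = 0.0014). Ccne1, the cyclin E that starts S phase with Cdk2, had 14.6 and 12.8 CPM in TRBV26 cells, against 20.3 and 17.6 CPM in other cells (-0.47 ± 0.11, edgeR adjusted p = 0.012). Its paralog Ccne2 was not called, with 6.43 and 4.67 CPM in TRBV26 cells, against 8.41 and 5.97 CPM in other cells (-0.37 ± 0.15, edgeR adjusted p = 0.12). E2f1 and Ccne1 were separated between the groups, and Ccne2 overlapped.

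Of the genes of the mitotic cyclin-dependent kinase and of chromatin, 7 of 8 were called lower, with a median of -0.55. Stmn1, a tubulin-binding protein that destabilizes microtubules, had 136 and 83.9 CPM in TRBV26 cells, against 214 and 141 CPM in other cells (-0.70 ± 0.08, edgeR adjusted p = 7.9e-05). Hmgb2, a DNA-bending chromatin protein, had 819 and 607 CPM in TRBV26 cells, against 969.7 and 796 CPM in other cells (-0.32 ± 0.07, edgeR adjusted p = 0.0092). Ccnb1, the cyclin that activates Cdk1 at the start of mitosis, was not called, with 28.6 and 16.3 CPM in TRBV26 cells, against 32.7 and 26.4 CPM in other cells (-0.43 ± 0.15, edgeR adjusted p = 0.07). Stmn1 was separated between the groups, while Hmgb2 and Ccnb1 overlapped, with mouse 1 above mouse 2 in each class. The proliferation marker Mki67 was called at -0.73, the topoisomerase Top2a at -0.69, Cdk1 at -0.53 and its cyclins Ccna2 and Ccnb2 at -0.58 and -0.46.

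The kinetochore and checkpoint genes had the lowest median over both mice, -0.75, with 7 of 8 called lower. In mouse 1 alone the median of the DNA synthesis genes lay lower. Cenpf had 34.8 and 18.6 CPM in TRBV26 cells, against 50.6 and 35.3 CPM in other cells (-0.71 ± 0.12, edgeR adjusted p = 0.0013). Cenpa was the member not called, with 138 and 105 CPM in TRBV26 cells, against 158 and 120.4 CPM in other cells (-0.20 ± 0.07, edgeR adjusted p = 0.066). Cenpf did not overlap between the groups and Cenpa did. The kinetochore genes Cenpe, Spc25 and Nuf2 and the checkpoint kinase genes Ttk, Bub1 and Bub1b had log2 fold changes between -0.96 (Ttk) and -0.57 (Spc25). All 6 mitotic kinase and passenger complex genes were called, with a median of -0.64. Aurkb, the kinase of the passenger complex, had 28.4 and 14.8 CPM in TRBV26 cells, against 42.1 and 29.2 CPM in other cells (-0.75 ± 0.10, edgeR adjusted p = 0.00035). Its partners Birc5, with 86.4 and 51.2 CPM in TRBV26 cells and 119 and 87.1 CPM in other cells, and Cdca8 (borealin) were called at -0.61 ± 0.12 and -0.51 ± 0.09 (edgeR adjusted p = 0.0039 and 0.0019). Cdca8 had 53.3 and 30.8 CPM in TRBV26 cells, against 68.0 and 49.7 CPM in other cells, and was the only 1 of these 3 whose groups overlapped. The kinases Aurka and Plk1 and the Aurora A activator Tpx2 lay between -0.68 (Plk1) and -0.49 (Tpx2).

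Of the anaphase-promoting complex genes, the activator Cdc20 was called, with 37.1 and 22.0 CPM in TRBV26 cells, against 46.8 and 35.5 CPM in other cells (-0.50 ± 0.14, edgeR adjusted p = 0.023). The ubiquitin-conjugating enzyme Ube2c was not, with 123 and 60.4 CPM in TRBV26 cells, against 140.1 and 98.0 CPM in other cells (-0.44 ± 0.16, edgeR adjusted p = 0.072). For Ube2c the log2 fold change was -0.18 in mouse 1 and -0.70 in mouse 2, so the mice differed in size but not in sign. All 6 spindle motor and midzone genes were called, with a median of -0.70. Nusap1, which bundles spindle microtubules, had 31.7 and 16.1 CPM in TRBV26 cells, against 47.9 and 30.2 CPM in other cells (-0.73 ± 0.12, edgeR adjusted p = 0.0012). The motor Kif11, which pushes the poles apart, had 35.1 and 17.6 CPM in TRBV26 cells, against 50.2 and 33.6 CPM in other cells (-0.70 ± 0.12, edgeR adjusted p = 0.0021). Prc1, which holds the midzone together, had 43.9 and 22.9 CPM in TRBV26 cells, against 54.7 and 40.1 CPM in other cells (-0.54 ± 0.11, edgeR adjusted p = 0.0041). The motors Kif20a and Kif23 and the spindle protein Hmmr lay between -0.77 (Kif23) and -0.58 (Kif20a). For Cdc20, Ube2c, Nusap1, Kif11 and Prc1 the lower TRBV26 value came from mouse 2, and the TRBV26 value of mouse 1 lay within the range of the other cells.

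**Figure D2:**
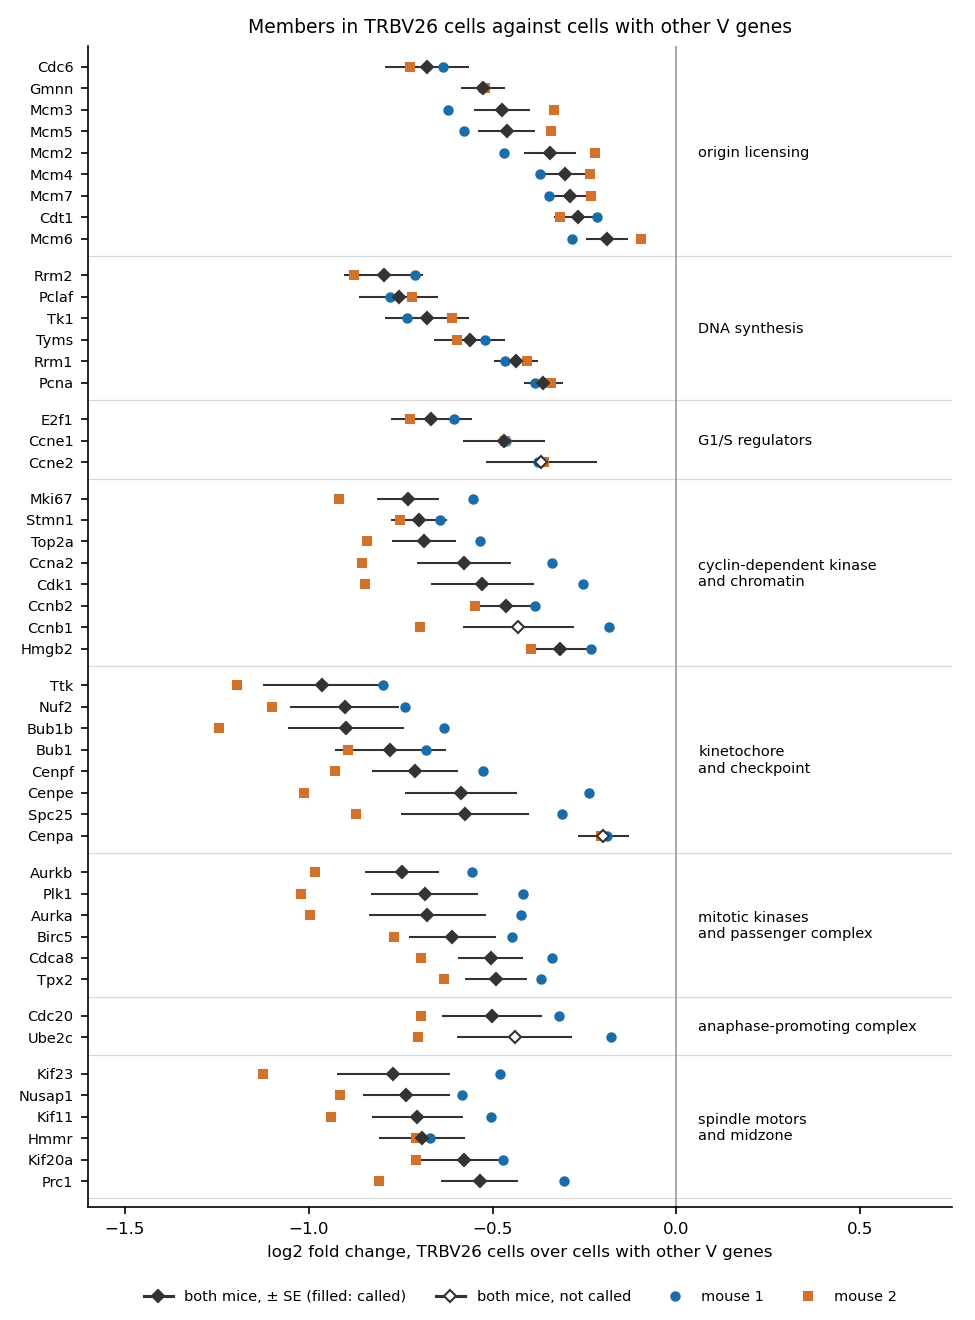
Log2 fold change of each of the 48 genes in TRBV26 cells over cells with other V genes, grouped by role; diamonds with bars are the value over both mice ± SE, filled where called and open where not, with each mouse's own value beside them. Every gene lies left of 0 in both mice, from Ttk at -0.96 to Mcm6 at -0.19, and Ccne2, Ccnb1, Cenpa and Ube2c are open.

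Without the mouse as a block, edgeR called 0 of the 48 members between TRBV26 and other cells, with 10 at an unadjusted p under 0.05, and DESeq2 with the block called 27. With each V gene of at least 100 cells per mouse as a class of its own 13 were called. That setting compared TRBV26 with the mean of the other V genes, TRBV23 among them, so its comparison cells are not the other cells used here. With 1 cell drawn per clonotype 47 were called, at a median of -1.05. Summed markers of red cells were 6.68 and 68.3 CPM in TRBV26 cells, against 9.70 and 10.8 CPM in other cells; their part in the result was not tested. The share of Foxp3-positive cells also moved with the class, at 8.49% and 13.0% in TRBV26 cells, against 22.3% and 22.1% in other cells.

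TRBV23 cells also had lower cell cycle genes than other cells. Of the members, 32 were called lower and none higher, where 6.67% of all tested genes were called lower, and the median log2 fold change was -0.46. The mice differed in size, with a median of -0.23 in mouse 1 and -0.92 in mouse 2. Rrm2 had 106 and 43.9 CPM in TRBV23 cells, against 132 and 88.9 CPM in other cells (-0.57 ± 0.12, edgeR adjusted p = 0.0094). Aurkb had 28.6 and 15.4 CPM in TRBV23 cells, against 42.1 and 29.2 CPM in other cells (-0.69 ± 0.12, edgeR adjusted p = 0.0034). For Aurkb the TRBV23 value of mouse 1 lay just below that of other cells of mouse 2, so the groups did not overlap, and for Rrm2 the TRBV23 value of mouse 1 lay within the range of the other cells. The comparisons of TRBV26 and of TRBV23 share the other cells. Between TRBV26 and TRBV23 cells directly, 0 of the 48 were called by edgeR, with 2 at an unadjusted p under 0.05, and DESeq2 called 0 (0.0238% of all tested genes were called by edgeR in either direction). The median was -0.10 there, with -0.20 in mouse 1 and 0.09 in mouse 2, and 14 members had the same sign in both mice. Without cells over 15000 UMIs 3 were called and the median was -0.30. The 32 calls in TRBV23 cells became 10 with DESeq2, 0 without the block (1 at an unadjusted p under 0.05), 7 with cells thinned to 2000 UMIs and 6 without cells over 15000 UMIs. The red cell markers were 5.48 and 335.8 CPM in TRBV23 cells, and their part was not tested.

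Counted by cell, fewer TRBV26 cells than other cells were past the gates in each mouse. The G2/M gate was passed by 146 of 2025 and 93 of 1940 TRBV26 cells, or 7.21% and 4.79%, against 318 of 2875 and 271 of 3604 other cells, or 11.1% and 7.52%. The exact 95% intervals were 6.12 to 8.42% and 3.89 to 5.84% for TRBV26 cells, against 9.94 to 12.3% and 6.68 to 8.43% for other cells, and within each mouse they did not overlap. The S gate was passed by 14.0% and 10.3% of TRBV26 cells, against 18.3% and 13.9% of other cells. TRBV23 cells lay between the classes in mouse 1 and near TRBV26 in mouse 2, with 8.33% and 4.32% past the G2/M gate. Intervals cover counting error only, and the shares were not tested over the mice. Cells with UMIs of Ccr7 and Lef1, genes of resting T cells, and none of the activation gene Cd44, a set chosen after the data were seen, passed the G2/M gate in 16 of 474 and 16 of 621 cells, or 3.38% and 2.58%, and the S gate in 8.44% and 9.50%, so part of each share may be background. Their median depths of 6255 and 6869 UMIs exceeded the 5411.5 and 6261.5 UMIs of TRBV26 cells and the 5726.5 and 6201 UMIs of other cells. Without thinning the G2/M shares were 17.1% and 15.6% in TRBV26 cells, against 23.6% and 22.4% in other cells.

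The cells past the G2/M gate held T cell markers. Cd3e was detected in 99.4% and 98.5% of them, against 98.8% and 99.0% of the cells outside it, and the 4 CD4 T cell markers summed to 2569 and 2642 CPM, against 3676 and 3666 CPM outside. Cd79a, a B cell gene, was detected in 0.369% and 0.760%, against 0.151% and 0.290%, and the red cell gene Hbb-bs in 3.69% and 2.53%, against 1.59% and 2.62%. Red cell markers summed to 8.02 and 150.5 CPM, against 8.03 and 51.1 CPM outside. The part of these markers in the shares was not tested. They held medians of 11903 and 12754 UMIs per cell before thinning, against 5426.5 and 6075.5 in cells past neither gate. Within the gate, the summed G2/M UMIs per 2000 had medians of 12 and 7 in TRBV26 cells and 11 and 10 in other cells, so gated cells of the classes differed in no common direction. Single genes were seen in few cells. Mki67 had a UMI in 6.67% and 5.57% of thinned TRBV26 cells, against 10.5% and 7.77% of other cells and 2.95% and 3.06% of Ccr7+ Lef1+ Cd44- cells. Mcm6 had one in 26.3% and 23.8% of TRBV26 cells, against 29.3% and 26.0% of other cells and 15.8% and 15.8% of Ccr7+ Lef1+ Cd44- cells.

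Of 30 other cell cycle regulators, 3 were called higher in TRBV26 cells than in other cells, 14 lower and 13 neither, where 8.73% of all tested genes were called higher and 10.5% lower. The 3 higher ones, a share near that of all tested genes, were the antiproliferative genes Btg1 and Btg2 and the Cdk inhibitor Cdkn1a, at 0.47. In TRBV23 cells these 3 were also called higher than in other cells, at 0.205, 0.294 and 0.708. Btg2 had 236 and 223 CPM in TRBV26 cells, against 183 and 185 CPM in other cells (0.32 ± 0.05, edgeR adjusted p = 0.00058). Btg1 had 752 and 731 CPM in TRBV26 cells, against 636 and 623 CPM in other cells (0.24 ± 0.04, edgeR adjusted p = 0.0012). Both were separated between the groups. The repressor E2f8, itself made in S phase, had 9.84 and 5.11 CPM in TRBV26 cells, against 16.3 and 11.1 CPM in other cells (-0.89 ± 0.14, edgeR adjusted p = 0.00094). The activator E2f2 had 34.2 and 30.7 CPM in TRBV26 cells, against 50.8 and 41.7 CPM in other cells (-0.50 ± 0.09, edgeR adjusted p = 0.0017). The pocket protein Rbl2 (p130), which holds E2F targets down in resting cells, was lower too, with 96.5 and 99.3 CPM in TRBV26 cells, against 131 and 128 CPM in other cells (-0.40 ± 0.06, edgeR adjusted p = 0.00043), as was the Cdk4/6 inhibitor Cdkn2a at -0.64 ± 0.11 (edgeR adjusted p = 0.0019). Of the other Cdk inhibitors, Cdkn2c and Cdkn2d were called lower at -0.24 and -0.39, and Cdkn1b and Cdkn1c were not called. The mitotic activators Foxm1 and Mybl2 were called lower at -0.87 and -0.57. The cyclins D, Ccnd1, Ccnd2 and Ccnd3, were not called.

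Among cells whose clonotype had 1 kept cell, called singles here, the members were also lower in TRBV26 cells, at a median further from 0. Of the members, 43 were called lower in TRBV26 singles than in other singles and none higher, where 10.6% of all 11384 tested genes were called lower. The median was -1.20, with -0.62 over the S phase genes, 13 of 18 called, and -1.35 over the G2 and mitosis genes, all 30 called. The S phase genes not called were Ccne2, Cdt1, Mcm2, Mcm6 and Mcm7, and Mcm6 was the only member above 0. Cenpf had 20.6 and 8.29 CPM in TRBV26 singles, against 58.8 and 39.2 CPM in other singles (-1.82 ± 0.37, edgeR adjusted p = 0.0017). Aurkb had 17.5 and 7.28 CPM in TRBV26 singles, against 37.1 and 34.8 CPM in other singles (-1.64 ± 0.26, edgeR adjusted p = 0.0002). Rrm2 had 51.0 and 39.8 CPM in TRBV26 singles, against 114 and 101 CPM in other singles (-1.29 ± 0.19, edgeR adjusted p = 9.8e-05). These 3 did not overlap between the groups. Mcm6 did not follow them, with 159 and 169.9 CPM in TRBV26 singles, against 156 and 145 CPM in other singles (0.12 ± 0.11, edgeR adjusted p = 0.48). TRBV23 singles had 40 of 48 called lower than other singles (8.86% of all tested genes), with a median of -1.12; this comparison was added after the data were seen.

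The singles also differed in other measures. Foxp3-positive cells made up 6.32% and 9.81% of TRBV26 singles, against 37.7% and 36.1% of other singles, and median depths were 5365 and 6320 UMIs, against 6510 and 7395.5 UMIs. The 4 CD4 T cell markers, none at 0, summed to 3558 and 3450 CPM in TRBV26 singles, against 2870 and 2800 CPM in other singles. The 3 B cell markers summed here, with Ms4a1 at 0 in each of these sums, came to 1.22 and 5.26 CPM in TRBV26 singles, against 7.58 and 13.3 CPM in other singles, and their part was not tested. In Foxp3-negative cells alone, a setting added after the data were seen, 40 members were called lower in TRBV26 singles, at a median of -1.21. The share of all tested genes called in that setting is not given. Without the mouse as a block edgeR called 7. The G2/M gate was passed by 4.58% and 3.39% of thinned TRBV26 singles, against 9.36% and 8.33% of other singles. The TRBV26 shares lay close to the 3.38% and 2.58% of Ccr7+ Lef1+ Cd44- cells, whose exact intervals, 1.94 to 5.42% and 1.48 to 4.15%, held them.

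Within TRBV26 cells, cell cycle genes rose with clonotype size. In clonotypes of 5 or more cells all 48 members were called higher than in TRBV26 singles, where 8.84% of all tested genes were called higher, at a median log2 fold change of 1.55. Medians were 1.16 over the S phase genes and 1.76 over the G2 and mitosis genes, and every member had the same sign in both mice. These sums held 298 and 235 cells of 35 and 23 clonotypes, against 1139 and 1162 singles. Ube2c was the member with the largest fold change, with 314 and 117 CPM from 5 cells on, against 60.3 and 31.0 CPM in singles (2.26 ± 0.43, edgeR adjusted p = 0.0016). Cenpf had 80.0 and 32.1 CPM from 5 cells on, against 20.6 and 8.29 CPM in singles (2.04 ± 0.43, edgeR adjusted p = 0.0036). Stmn1 had 245 and 156 CPM from 5 cells on, against 101 and 62.6 CPM in singles (1.34 ± 0.14, edgeR adjusted p = 6e-06). In each of these the large clonotypes of mouse 1 were the highest of the 4 sums and did not overlap with the singles. Rrm2 had 177 and 88.0 CPM from 5 cells on, against 51.0 and 39.8 CPM in singles (1.55 ± 0.21, edgeR adjusted p = 0.00011). E2f1 had 22.5 and 9.96 CPM from 5 cells on, against 7.31 and 7.53 CPM in singles (1.20 ± 0.30, edgeR adjusted p = 0.01), most of it from mouse 1. Mcm6 had 305 and 225 CPM from 5 cells on, against 159 and 169.9 CPM in singles (0.71 ± 0.12, edgeR adjusted p = 0.0004). Among the regulators 11 of 28 rose and 4 fell, where 6.03% of all tested genes were called lower, with E2f8 highest at 2.44 ± 0.27 and Btg1 and Btg2 lower at -0.35 ± 0.06 and -0.39 ± 0.09 (edgeR adjusted p = 1.2e-05, 0.00077 and 0.0042).

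Clonotypes of 2 to 4 cells lay between. Against singles their median was 0.71, and 1 member was called, Top2a at 0.75 ± 0.14 (edgeR adjusted p = 0.049), where 0.0527% of all tested genes were called higher. By size, Aurkb had 17.5 and 7.28 CPM in TRBV26 singles, 30.2 and 21.7 CPM at 2 to 4 cells and 57.0 and 33.8 CPM from 5 cells on. Nusap1 had 20.4 and 8.91, then 33.7 and 21.2, then 61.4 and 37.1 CPM at the same sizes. Both genes were higher at each step in both mice, whereas E2f1 and Cenpf in mouse 2 were highest at 2 to 4 cells. The share of TRBV26 cells past the G2/M gate was 4.58% and 3.39% in singles, 7.90% and 5.92% at 2 to 4 cells and 15.8% and 9.05% from 5 cells on, and past the S gate 10.5% and 9.04%, 15.3% and 10.9% and 24.3% and 14.7%. The interval from 5 cells on, 11.8 to 20.4% in mouse 1 and 5.69 to 13.5% in mouse 2, did not overlap that of the singles, 3.43 to 5.98% and 2.42 to 4.60%. These intervals count cells and leave out the spread between clonotypes. Of the TRBV26 clonotypes from 5 cells on, 14 of 35 in mouse 1 and 11 of 23 in mouse 2 had no cell past the G2/M gate. Their median share was 14.3% in mouse 1 and 3.39% in mouse 2, the latter that of its largest TRBV26 clonotype, with 2 of 59 cells. A median over clonotypes is not a share of pooled cells, so these medians cannot be set against the share of the singles.

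The 48 calls from 5 cells on became 30 without the mouse as a block, 30 of 46 tested with cells thinned to 2000 UMIs, and 28 without cells over 15000 UMIs, where the median was 0.94. Foxp3-positive cells made up 18.1% and 18.3% of these clonotypes, against 6.32% and 9.81% of TRBV26 singles, and in Foxp3-negative cells alone 44 members were called higher. Myeloid markers summed to 22.5 and 10.5 CPM from 5 cells on, against 10.2 and 6.51 CPM in singles, and their part was not tested. Without the largest TRBV26 clonotype of each mouse all 48 were still called.

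**Figure D3:**
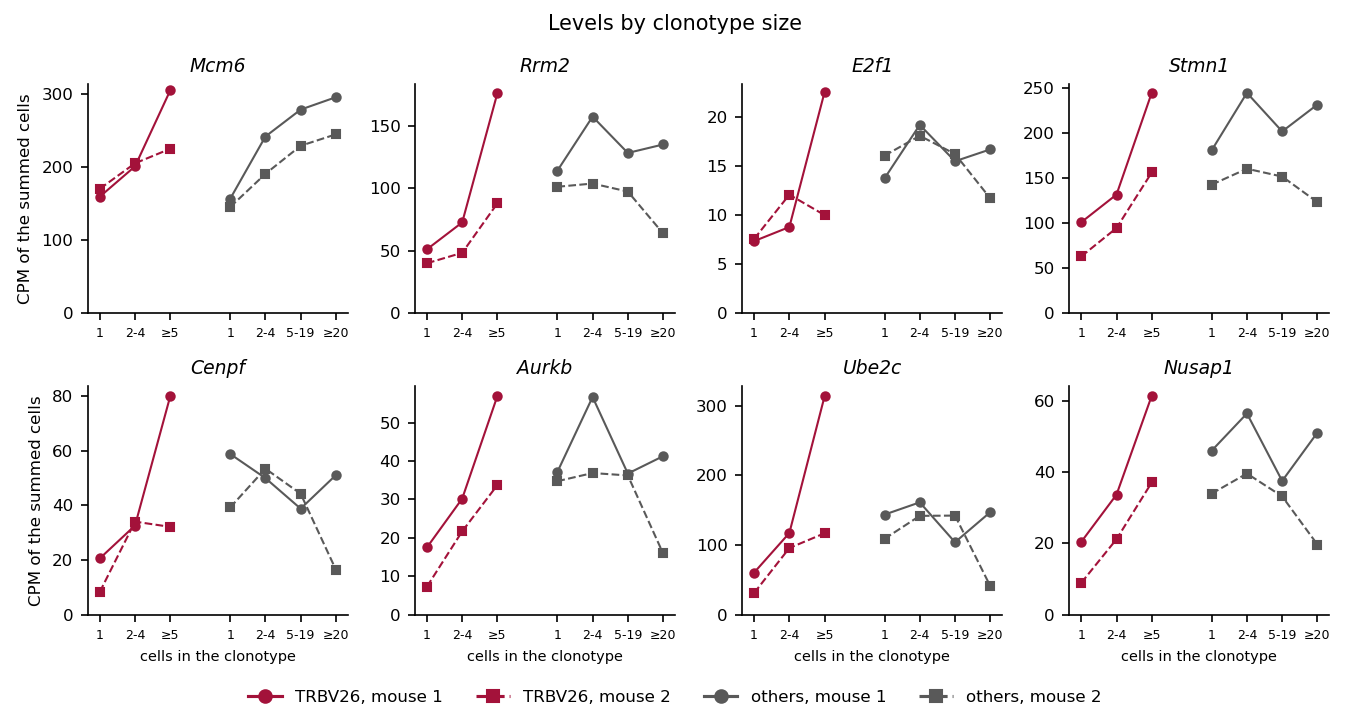
CPM of Mcm6, Rrm2, E2f1, Stmn1, Cenpf, Aurkb, Ube2c and Nusap1 in summed cells by the number of cells in the clonotype, for TRBV26 cells (red) and cells with other V genes (grey), with mouse 1 as circles on solid lines and mouse 2 as squares on dashed lines. From 5 cells on every TRBV26 line lies above its singles, though mouse 2 is highest at 2 to 4 cells for E2f1 and Cenpf. Aurkb reaches 57.0 and 33.8 CPM, and among the grey lines that of Mcm6 climbs in both mice.

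In cells with other V genes the members did not rise with size as a group. Against other singles, the median was 0.27 at 2 to 4 cells, 0.00 at 5 to 19 cells and -0.16 from 20 cells on. At 2 to 4 and at 5 to 19 cells Mcm6 alone was called, at 0.47 ± 0.11 and 0.73 ± 0.11 (edgeR adjusted p = 0.015 and 0.00014), where 2.35% and 7.48% of all tested genes were called higher. From 20 cells on Mcm6 and Ccne1 were called higher and Bub1b and Kif20a lower, 4 of 48, where 29.3% of all tested genes were called in either direction. Mcm6 had 156 and 145 CPM in other singles, 242 and 190.4 CPM at 2 to 4 cells, 278 and 229 CPM at 5 to 19 and 296 and 245 CPM from 20 on. It was higher at each step in both mice, and from 20 cells on it was 0.86 ± 0.11 above singles (edgeR adjusted p = 6e-06). The checkpoint kinase Bub1b was -0.58 ± 0.20 and the motor Kif20a -0.62 ± 0.19 (edgeR adjusted p = 0.035 and 0.017).

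The mice went apart from 20 cells on. The median of the members was 0.24 in mouse 1 and -0.50 in mouse 2, and 13 of 48 had the same sign in both. Birc5 had 123 and 40.2 CPM from 20 cells on, against 114 and 115 CPM in other singles (-0.63 ± 0.27, edgeR adjusted p = 0.091). Cdc20 had 49.1 and 14.1 CPM from 20 cells on, against 42.9 and 46.3 CPM in other singles (-0.65 ± 0.31, edgeR adjusted p = 0.14). In both genes mouse 1 lay above its singles and mouse 2 below them. The shares past the G2/M gate were 9.36% and 8.33% in other singles, 14.7% and 9.57% at 2 to 4 cells, 9.85% and 7.51% at 5 to 19 and 11.2% and 5.92% from 20 on. Foxp3-positive cells made up 2.96% and 1.35% from 20 cells on, against 37.7% and 36.1% of other singles, and with Foxp3-negative cells alone 1 member was called. Without a filter on low counts 17 members were called, and without cells over 15000 UMIs 8, at a median of 0.25.

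Large clonotypes differed widely among themselves. Among other cells, the 16 clonotypes of at least 20 cells in mouse 1 had between 0 and 19.5% of cells past the G2/M gate with a median of 10.4%, and the 17 in mouse 2 had between 0 and 20.7% with a median of 5.92%. The 2 largest of mouse 1, both TRBV31, had 7.41% of 216 cells (exact interval 4.29 to 11.7%) and 19.5% of 215 cells (14.5 to 25.5%), so clonotypes of like size and V gene did not share a value. Of the gated cells in this class, 37.8% came from 1 clonotype in mouse 1 and 25.6% in mouse 2. Among TRBV26 cells, the 3 clonotypes of at least 20 cells in mouse 1 had 22.9%, 29.2% and 20%, the last with Foxp3 in 90.0% of its cells. The largest TRBV26 clonotype of mouse 2 had 3.39% of 59 cells (0.413 to 11.7%). The largest TRBV23 clonotype had 0 of 42 cells past the gate, which allows a share of up to 8.41% (exact interval, counting error only).

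**Figure D4:**
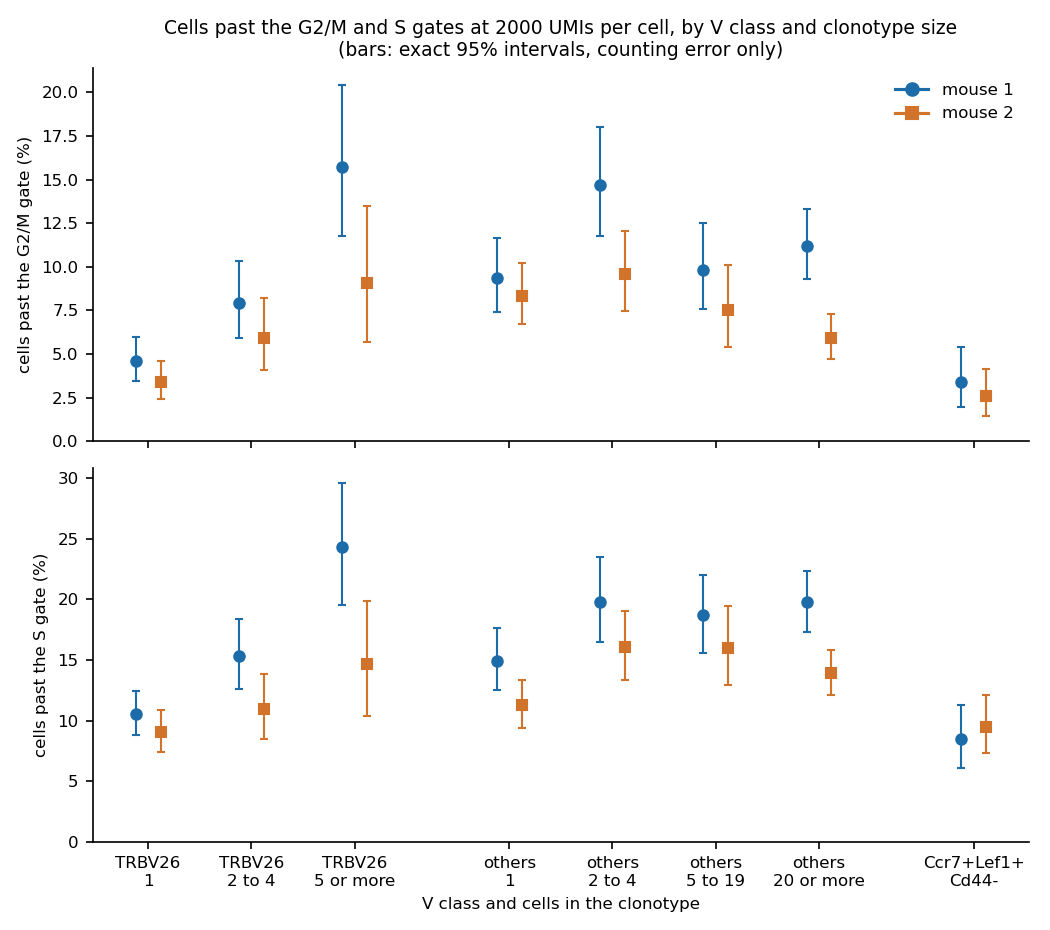
Percent of cells, thinned to 2000 UMIs, past the G2/M gate (top) and the S gate (bottom) by V class and number of cells in the clonotype; circles are mouse 1, squares mouse 2, and bars exact 95% intervals that cover counting error only. TRBV26 shares climb with size from 4.58% and 3.39% past the G2/M gate, and those of cells with other V genes do not climb in both mice.

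Set directly against each other, the classes differed at 2 to 4 cells per clonotype. These tests were added after the data were seen. At 2 to 4 cells, 14 members were called lower in TRBV26 than in other cells, where 3.92% of all tested genes were called lower, at a median of -0.68. They were the DNA synthesis genes Pcna, Pclaf, Tyms, Rrm1, Rrm2 and Tk1, the licensing gene Mcm3, and Mki67, Stmn1, Top2a, Bub1b, Nuf2, Kif20a and Kif23. Rrm2 had 72.6 and 48.2 CPM in TRBV26 cells of this size, against 158 and 104 CPM in other cells (-1.10 ± 0.21, edgeR adjusted p = 0.0025). Between TRBV26 clonotypes from 5 cells on and other clonotypes of 5 to 19 cells, edgeR called 0 members, with 8 at an unadjusted p under 0.05, and DESeq2 called 0 (0.422% of all tested genes were called by edgeR in either direction). The median was 0.29 there. Rrm2 had 177 and 88.0 CPM in TRBV26 clonotypes from 5 cells on, against 128 and 97.5 CPM in other clonotypes of 5 to 19 cells, and the groups overlapped. The sizes do not match there, since the TRBV26 sums include clonotypes of 20 to 59 cells. The 14 calls at 2 to 4 cells became 8 with DESeq2, 8 of 46 tested with thinned cells, 6 in Foxp3-negative cells alone, 0 without the mouse as a block and 41 without a filter on low counts.

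The size effect itself differed between the classes. The change from 5 cells on over singles in TRBV26 cells, minus the change at 5 to 19 cells over singles in other cells, was called above 0 for 37 members, where 4.37% of all tested genes were called higher, at a median of 1.60. By phase, 9 of 18 S phase genes and 28 of 30 G2 and mitosis genes were called. For Cenpf the difference was 2.27 ± 0.55 (edgeR adjusted p = 0.016), at 2.61 in mouse 1 and 1.84 in mouse 2. For Nusap1 it was 2.02 ± 0.36 (edgeR adjusted p = 0.0021), at 1.93 in mouse 1 and 2.15 in mouse 2. For Rrm2 it was 1.54 ± 0.28 (edgeR adjusted p = 0.0026), at 1.67 in mouse 1 and 1.26 in mouse 2. In these 3 genes the mice had the same sign. The members not called were Ccne2, E2f1, Cdc6, Cdt1, Gmnn, Mcm2, Mcm5, Mcm6, Mcm7, Hmgb2 and Bub1, and for Mcm6 the difference was -0.01 ± 0.16. At 2 to 4 cells the same difference was called for 0 members by edgeR, with 7 at an unadjusted p under 0.05, and for 0 by DESeq2 (0.114% of all tested genes by edgeR), at a median of 0.49. The 37 calls became 0 without the mouse as a block (40 at an unadjusted p under 0.05), 20 of 46 tested with thinned cells, 17 without cells over 15000 UMIs and 16 in Foxp3-negative cells alone.

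Foxp3-positive cells, which in CD4 T cells are mainly regulatory T cells, had higher mitotic genes. Among other cells, 27 members were called higher in Foxp3-positive than in Foxp3-negative cells and 1 lower, where 16.7% of all 11716 tested genes were called higher and 15.1% lower, at a median of 0.46 (0.64 in mouse 1 and 0.26 in mouse 2). The calls lay almost all in G2 and mitosis, with 26 of 30 called higher at a median of 0.66. Of the 18 S phase genes, Gmnn was called higher, Ccne1 lower, and 16 were not called, at a median of 0.14. Cenpa had 248 and 191 CPM in Foxp3-positive cells, against 128 and 98.9 CPM in Foxp3-negative cells (0.93 ± 0.09, edgeR adjusted p = 1.5e-07). Cenpf had 80.9 and 51.5 CPM in Foxp3-positive cells, against 40.5 and 30.3 CPM in Foxp3-negative cells (0.86 ± 0.12, edgeR adjusted p = 1.6e-05). Cdc20 had 69.9 and 50.2 CPM in Foxp3-positive cells, against 39.1 and 31.0 CPM in Foxp3-negative cells (0.74 ± 0.16, edgeR adjusted p = 0.0015). These 3 did not overlap between the groups. Of the replication genes, Pcna was not called, with 119.7 and 94.4 CPM in Foxp3-positive cells, against 119 and 97.6 CPM in Foxp3-negative cells (-0.04 ± 0.09, edgeR adjusted p = 0.79). Mcm6 had 236 and 197 CPM in Foxp3-positive cells, against 245 and 199.7 CPM in Foxp3-negative cells (-0.06 ± 0.08, edgeR adjusted p = 0.62). Ccne1 had 16.9 and 9.97 CPM in Foxp3-positive cells, against 21.5 and 19.98 CPM in Foxp3-negative cells (-0.68 ± 0.17, edgeR adjusted p = 0.004). Pcna and Mcm6 overlapped between the groups and Ccne1 did not.

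Among TRBV26 cells, 32 members were called higher in Foxp3-positive than in Foxp3-negative cells, where 15.0% of all tested genes were called higher, at a median of 0.73 (0.46 in mouse 1 and 1.01 in mouse 2). Here the S phase genes took part, with 14 of 18 called beside 18 of 30 G2 and mitosis genes. Gmnn had 73.2 and 59.1 CPM in Foxp3-positive TRBV26 cells, against 42.3 and 31.2 CPM in Foxp3-negative ones (0.86 ± 0.11, edgeR adjusted p = 5.2e-06). Mcm4 had 126 and 103 CPM in Foxp3-positive TRBV26 cells, against 77.5 and 72.5 CPM in Foxp3-negative ones (0.61 ± 0.10, edgeR adjusted p = 0.00013). Cenpa had 196 and 173 CPM in Foxp3-positive TRBV26 cells, against 130 and 90.8 CPM in Foxp3-negative ones (0.78 ± 0.11, edgeR adjusted p = 2.5e-05). None of these 3 overlapped. Nusap1 was not called, and its log2 fold change was 0.01 in mouse 1 and 1.39 in mouse 2. The test of the difference between the Foxp3 effects of the classes, TRBV26 minus other cells, called 7 members higher, where 1.97% of all tested genes were called higher. All 7 were S phase genes: Ccne1 at 1.20 ± 0.30, Cdc6 at 1.13 ± 0.26, Mcm3 at 0.78 ± 0.14, Mcm2 at 0.76 ± 0.15, Mcm5 at 0.65 ± 0.17, Mcm4 at 0.54 ± 0.13 and Gmnn at 0.50 ± 0.13. None of the 30 G2 and mitosis genes was called there by edgeR, with 1 at an unadjusted p under 0.05, and DESeq2 called 5 of the 48 members. Over all members the median was 0.23 (-0.15 in mouse 1 and 0.69 in mouse 2).

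**Figure D5:**
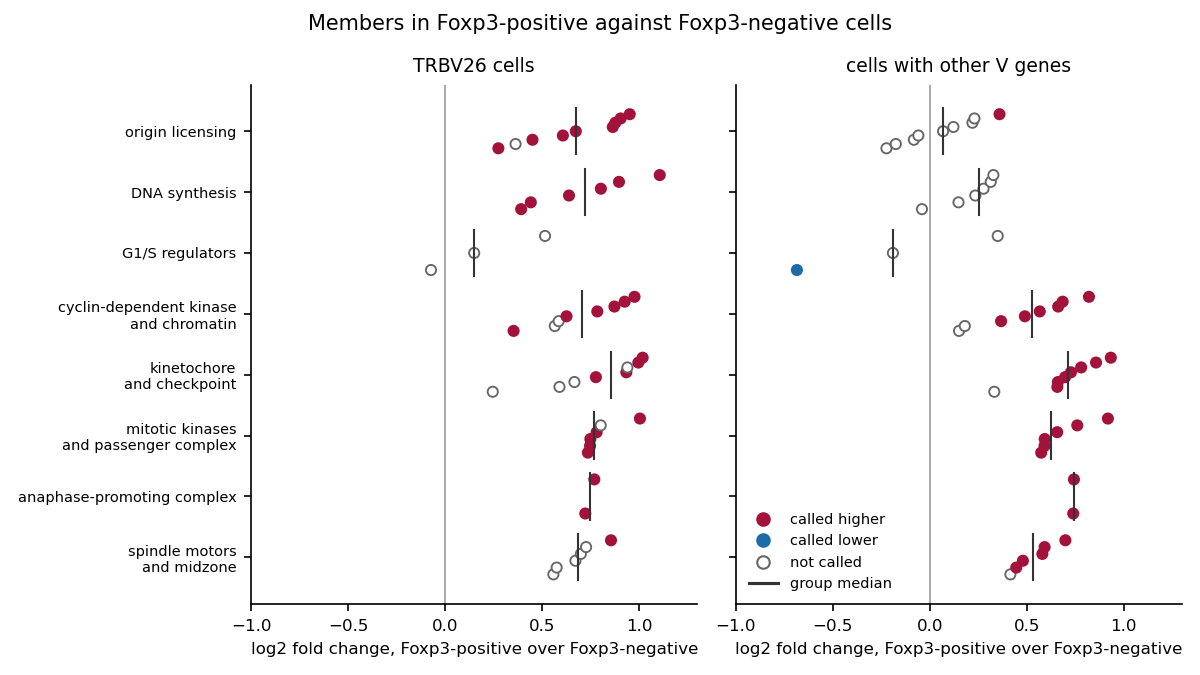
Log2 fold change of each member in Foxp3-positive over Foxp3-negative cells by role, for TRBV26 cells and for cells with other V genes; points are genes, coloured where called. In cells with other V genes the licensing and synthesis genes have medians nearer 0 than the mitotic groups, while in TRBV26 cells most of both lie above 0.

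The share of cells past the G2/M gate followed Foxp3, with 15.8% and 9.64% of Foxp3-positive cells, against 8.09% and 5.57% of Foxp3-negative cells. In TRBV26 cells it was 13.1% and 11.1% of Foxp3-positive cells, against 6.65% and 3.85% of Foxp3-negative ones, and in other cells 15.8% and 9.24%, against 9.70% and 7.03%. Median depths were 6960 and 7674 UMIs in Foxp3-positive TRBV26 cells, against 5331 and 6159.5 in Foxp3-negative ones, and 6019 and 6198 in Foxp3-positive other cells, against 5616 and 6201 in Foxp3-negative ones. The positive cells were deeper except in other cells of mouse 2. B cell markers, with Ms4a1 at 0 in the 4 Foxp3-positive sums, came to 3.48 and 20.1 CPM in Foxp3-positive TRBV26 cells, against 1.08 and 1.16 CPM in Foxp3-negative ones, and to 12.6 and 20.4 CPM in Foxp3-positive other cells, against 1.42 and 2.48 CPM in Foxp3-negative ones. CD8 T cell markers, with Cd8a at 0 in all 8, came to 11.1 and 15.3 CPM in Foxp3-positive TRBV26 cells, against 8.98 and 6.85 CPM, and to 14.9 and 19.9 CPM in Foxp3-positive other cells, against 6.77 and 5.25 CPM. The part of these markers was not tested. With cells thinned to 2000 UMIs 17 members were called higher among other cells and 20 among TRBV26 cells, and without the mouse as a block 1 and 5.

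The V class difference was measured within each Foxp3 status as well. In Foxp3-negative cells 40 of 48 members were called lower in TRBV26 than in other cells, where 10.3% of all tested genes were called lower, at a median of -0.59. Stmn1 had 133 and 68.0 CPM in Foxp3-negative TRBV26 cells, against 201 and 141 CPM in Foxp3-negative other cells (-0.82 ± 0.14, edgeR adjusted p = 0.00026). E2f1 had 10.0 and 9.27 CPM in Foxp3-negative TRBV26 cells, against 16.2 and 15.7 CPM in Foxp3-negative other cells (-0.74 ± 0.14, edgeR adjusted p = 0.00065). Neither gene overlapped between the classes. Ccne2, Cdc20, Ube2c, Ccnb1, Cenpa, Cenpe, Spc25 and Kif20a were not called. In Foxp3-positive cells edgeR called 0 members, with 11 at an unadjusted p under 0.05, and DESeq2 called 0 (0.435% of all tested genes were called by edgeR in either direction), at a median of -0.32. Of the 11, Mcm2 lay above 0, at 0.27, and the others below. Every G2 and mitosis gene lay below 0. Of the S phase genes, Ccne1, Cdc6, Cdt1, Mcm2, Mcm3, Mcm4, Mcm5 and Mcm6 lay above 0 and the rest below. With 177 and 254 Foxp3-positive TRBV26 cells, against 659 and 805 other cells, these sums were the smallest of the comparison, and with 1 cell drawn per clonotype 8 members were called there. The 40 calls in Foxp3-negative cells became 24 with DESeq2 and 2 without the mouse as a block.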

How the data were processed

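Deposited matrices held counts of UMIs per gene and cell barcode of 2 gene expression libraries, beside contig tables of 2 T cell receptor libraries. Reads were processed with Cell Ranger 7.0.1 against mm10 (GRCm38), per the submitters' processing notes. Cells with at least 500 genes, at most 10% mitochondrial UMIs, 1 TRB chain and at most 2 TRA chains were kept. Left out were 708 and 702 cells with 2 TRB chains. No doublet caller was run, and leaving out cells over 15000 UMIs was an alternative. Counts were summed per mouse and class, receptor gene segments left out, and tested with edgeR 4.0.16 (R 4.3.3; filterByExpr, TMM, quasi-likelihood F test). The classes of a mouse come from the same host, so the mouse was a block and this pairing comes from the labels. SE is the size of the log2 fold change divided by the square root of F. The residual degrees of freedom were 2 for V classes, 8 for clonotype sizes and 5 for Foxp3 status. To these edgeR added prior degrees of freedom estimated over all tested genes, with medians of 9.19, 9.58 and 13.1. DESeq2 1.42.0 was an alternative, beside thinned cells, 1 cell per clonotype, each V gene as a class, other filters and no block.

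Gates and detection used cells thinned at random to 2000 UMIs, with 157 and 71 shallower cells left out. Exact Clopper-Pearson intervals (95%, scipy 1.17.1) cover counting error only. Promoter letters are from RefSeq, GRCm38.p6. 22 members were named with values in each mouse: per role group the 2 highest in mean CPM, the smallest p for TRBV26 against other cells, and any not called there. Regulators named with values were those called with the 6 smallest p. Other members and regulators named, and which of the 22 serve as examples in each comparison, were chosen after their values were seen. The others named were all genes of a short list of calls, ends of a range, Cdkn1a, Cdkn1b, Cdkn1c, Cdkn2c, Cdkn2d, Foxm1, Mybl2 and the D cyclins. On simulated counts of the V class design 61.2% of genes changed 1.4-fold and 88.9% of genes changed 2-fold were recovered, with 3 false calls. For the clonotype size design (TRBV26 from 5 cells on against singles) these were 33.0%, 77.6% and 7, and for the Foxp3 design (other cells) 53.1%, 88.9% and 7. The simulated counts held no difference between the mice, and all genes had the same dispersion, that of the fit with the block. The false calls there therefore do not measure those of the real counts. The members, lists and comparisons were chosen with earlier results of these data known.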

Additional observations from a re-analysis of the deposited data

Results flagged for a closer look

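The change with clonotype size differed between TRBV26 cells (5 cells and more over singles) and other cells (5 to 19 cells over singles) by a test of the difference itself, and 37 of the 48 members passed it in edgeR. These became 0 without the mouse as a block, 20 of 46 tested with cells thinned to 2000 UMIs, 17 without cells over 15000 UMIs and 16 in Foxp3-negative cells alone. On the log2 scale, TRBV26 minus other cells, the difference was 1.41 for Pclaf, 0.61 for Pcna, 1.54 for Rrm2, 1.06 for Ccne1 and 0.52 for Mcm4 among the S phase genes named. Among the chromatin and kinetochore genes it was 1.72 for Ccnb1, 1.25 for Stmn1, 1.19 for Cenpa and 2.27 for Cenpf. For the passenger complex it was 1.98 for Aurkb, 2.03 for Birc5 and 1.59 for Cdca8. For the anaphase-promoting complex it was 1.90 for Cdc20 and 2.26 for Ube2c, and for the spindle genes 1.70 for Kif11, 2.02 for Nusap1 and 2.06 for Prc1. The TRBV26 and the other singles both enter this difference, and the level of the singles is given with the results above.

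The Foxp3 effect also differed between TRBV26 and other cells for 7 members by its own test in edgeR, and for 0 without the mouse as a block and 4 with thinned cells. Among the genes named for their values these were Ccne1 at 1.20, Gmnn at 0.50 and Mcm4 at 0.54 on the log2 scale, TRBV26 minus other cells. For Ccne1 the log2 fold change with Foxp3 was 0.35 in mouse 1 and 0.62 in mouse 2 in TRBV26 cells, where it was not called, and -0.37 in mouse 1 and -1.02 in mouse 2 in other cells.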

How the results depend on the processing

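Counts of members called are given here where they moved by over 1.5 times. The shares of all tested genes called in these settings are not given, so it is not shown whether the members moved more than other genes. Pairing by mouse came from the same host. With no replicate block, the 44 calls of TRBV26 against other cells became 0, the 32 of TRBV23 0, the 43 of singles 7, the 4 of other clonotypes from 20 cells on 1, the 48 of TRBV26 clonotypes from 5 cells on 30, those with Foxp3 1 in other cells and 5 in TRBV26 cells, the 40 of Foxp3-negative cells 2, the 40 of TRBV23 singles 2, and those between the classes at 2 to 4 cells (14), of the difference in size effect (37) and of that in Foxp3 effect (7) 0. With DESeq2 they were 27 for TRBV26, 10 for TRBV23, 1 for other clonotypes from 20 cells on, 11 higher with Foxp3 in other cells, 24 in Foxp3-negative cells and 8 between the classes at 2 to 4 cells. Each V gene as a class gave 13 for TRBV26, there against the mean of the other V genes with TRBV23 among them. Thinning to 2000 UMIs gave 7 for TRBV23, 30 for TRBV26 size, 17 for Foxp3 in other cells, 20 in TRBV26 cells, 17 for TRBV23 singles, 8 between the classes at 2 to 4 cells, 20 for the difference in size effect and 4 for that in Foxp3 effect. Leaving out cells over 15000 UMIs gave 6 for TRBV23, 3 for TRBV26 against TRBV23, 8 for other clonotypes from 20 cells on, 28 for TRBV26 size, 14 for Foxp3 in other cells, 19 for TRBV23 singles and 17 for the difference in size effect. No filter on low counts gave 1 for TRBV26 against TRBV23, 17 for other clonotypes from 20 cells on and 7 in Foxp3-positive cells, where 1 cell per clonotype gave 8. Without the filter there were also 41 between the classes at 2 to 4 cells, 14 from 5 cells on, 12 for the difference in size effect at 2 to 4 cells and 13 for that in Foxp3 effect. Foxp3-negative cells alone gave 1 for other clonotypes from 20 cells on, 23 for TRBV23 singles, 6 between the classes at 2 to 4 cells and 16 for the difference in size effect. Where 1 member was called at 2 to 4 or 5 to 19 cells against singles, settings gave between 0 and 33. Between the classes from 5 cells on, thinning gave 2 and leaving out the largest TRBV26 clonotypes 1. The cause of these moves was not tested. TRBV26 minus other cells, the mean share past the G2/M gate was -2.30 percentage points at 1000 UMIs and -6.66 unthinned. Past the S gate it was -4.53 with a gate of 2 UMIs, -3.42 with a gate of 5, -2.45 at 1000 UMIs and -6.89 unthinned. Mcm6 reversed to 0.000543 in TRBV26 against other cells with 1 cell per clonotype. Leaving out a mouse leaves no residual degrees of freedom in any comparison, so each mouse's own fold change is given instead. Depth limits the S and G2/M gates, which Ccr7+ Lef1+ Cd44- cells also pass, and the least counted members such as Ccne2.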
